A study of Danio rerio with 2 samples.

Results

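Transcripts of 9 zebrafish genes, 7 matrix metalloproteinases (mmp2, mmp9, mmp13a, mmp11a, mmp11b, mmp14a and mmp14b) and 2 tissue inhibitors of metalloproteinases (timp2a and timp2b), were compared between lri12 mutant larvae and their wild-type siblings. The genes were selected from the gene symbols of the deposited expression table, by a list of metalloproteinases and TIMPs in tissue remodelling that was drawn up with the mutant and wild-type values of the same table known. All 9 were present, each as 1 locus, among 27458 gene symbols in use. Because the same contrast was known when the list was made, its differences are given as a description, and none is a test of the family.

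Matrix metalloproteinases are zinc-dependent enzymes that are made as inactive proenzymes and cleave collagens and other proteins of the extracellular matrix. TIMPs bind their active sites and block them. In mammals the membrane-anchored enzyme MMP14 activates the secreted gelatinase MMP2 at the cell surface, with TIMP2 serving as the adaptor that holds the proenzyme in place. In zebrafish several of these genes are present as pairs of copies, and family members are known from work on fin regeneration, wound healing and leukocyte migration.

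RNA came from 2 pools of 20 whole larvae at 5 days post-fertilization (dpf), 1 pool homozygous for lri12 and 1 pool of wild-type clutch-mates, raised at the same temperature. The gene altered in lri12 is not named in the labels, so its transcript could not serve as a check on them, and no other allele or agent is stated for either group. With 1 pool per genotype, every difference below is between 2 libraries, with no replicate check and no test of genotype. Pooling hides variation between larvae. In whole bodies, fewer cells of a type and less RNA per cell cannot be told apart.

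Levels were read as FPKM, fragment numbers divided by transcript length and by library size, going by the column names since no label states the unit. On that reading levels of different genes can be set side by side. Each difference is log2((mutant FPKM + 1)/(wild-type FPKM + 1)), and each fold is on this scale unless it is called a plain ratio. The pseudocount of 1 FPKM understates the difference of low genes. Genes averaging at least 1 FPKM over both pools entered, which gave 18664 genes, with all 9 members among them. Their log2 differences had a median of 0.004, and 5% of genes lay below -0.33 and 5% above 0.28. Depth is not known in absolute terms. Among 1786 loci too low for the authors to test, the commonest ratio of values corresponds to 1.11 mutant reads per wild-type read if it stands for equal read numbers. Markers of the tissues a whole body should hold were present in both pools, with summed levels of 46420 FPKM in the mutant and 43920 FPKM in wild type for 6 fast muscle genes and 395 FPKM in the mutant and 393 FPKM in wild type for 6 brain genes. The 5 liver genes summed to 7862 FPKM in the mutant and 7724 FPKM in wild type. Most of that sum is zgc:193613, a synonym of apoa2, at 5768 FPKM in the mutant and 4944 FPKM in wild type. It was the single liver gene with a log2 difference above 0. The other 4 were below 0, 2 of them lower in the mutant by 2-fold or more, and the list had a median of -0.34.

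The clearest differences were in 1 proteinase and 1 inhibitor. The stromelysin-3 copy mmp11b was 1.86-fold higher in the mutant, the inhibitor timp2b was 1.88-fold higher, and the gelatinase mmp9 followed at 1.51-fold. The most abundant member, mmp2, was 1.30-fold higher, while mmp14a, mmp14b and timp2a, next in abundance in the mutant, differed by at most 1.06-fold. Of the 9 members, 8 stood above 0 and 1 below, with a median log2 difference of 0.31, against a median of 0.004 and 51.3% above 0 over all genes. No member was at least 2-fold higher, where 0.289% of all genes were, and none was at least 2-fold lower, where 0.439% of all genes were. At least 1.5-fold higher were 3 members, with 0.804% of all genes past that limit, and 0 members were at least 1.5-fold lower, with 1.68% of all genes. With a pseudocount of 5 FPKM the 3 members became 1, and 78 of all genes were at least 1.5-fold higher. By plain ratios 2 members, mmp11b and timp2b, were at least 2-fold higher, as were 74 of all genes. Since the list was made with these values known, the counts are not read against those shares.

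**Figure D1:**
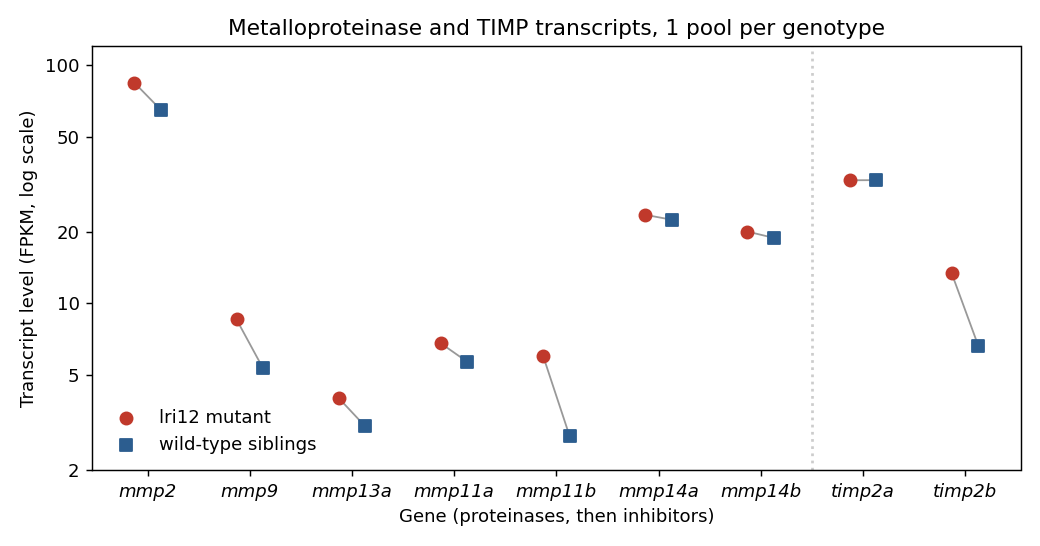
Transcript level in FPKM (log scale) of the 7 proteinases and 2 inhibitors in the lri12 mutant pool (circles) and the wild-type pool (squares), 1 pool per genotype, with a line joining the 2 pools of each gene. The steepest lines are those of mmp11b (6.04 FPKM in the mutant, 2.78 FPKM in wild type) and timp2b (13.4 FPKM in the mutant, 6.65 FPKM in wild type), while timp2a is level at 32.8 FPKM in the mutant and 32.9 FPKM in wild type.

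The gelatinases differ in abundance and were both higher in the mutant. They cleave denatured collagen and basement membrane collagen. The gene mmp2 (chromosome 7, 36864729 to 36887594, Zv9) had 84.2 FPKM in the mutant pool and 64.7 FPKM in the wild-type pool. It was the most abundant member in both pools and made up 55.0% of the summed level of the 7 proteinases in the mutant and 52.7% in wild type. Its fold of 1.30 is modest, yet in absolute terms it is the widest gap of all members, at 19.4 FPKM. By log2 difference, 97.5% of all genes lay below mmp2. In the authors' deposited table its p was 0.16 and its q 0.999.

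The second gelatinase, mmp9 (chromosome 8, 24961401 to 25148890), is known from inflamed and wounded tissue, where leukocytes and epithelial cells express it. It had 8.57 FPKM in the mutant pool and 5.34 FPKM in the wild-type pool. The plain ratio was 1.60 and the log2 difference 0.59, just past the 1.5-fold limit, with 99.2% of all genes below it. With a pseudocount of 5 FPKM mmp9 came under that limit, at a log2 difference of 0.39. The authors' deposited table gives it a p of 0.0758 and a q of 0.999. The ratio of mmp2 to mmp9 was 9.82 in the mutant and 12.1 in wild type. The deposited locus of mmp9 spans 187 kb and holds 5 further gene models. The most abundant, DCLRE1B, had 7.62 FPKM in the mutant and 7.59 FPKM in wild type. A model with no symbol was higher in the mutant, as mmp9 was, at 1.38 FPKM against 0.773 FPKM in wild type. The remaining models differed less. How reads were divided within this locus is not stated.

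The collagenase mmp13a (chromosome 10, 39959933 to 39979810), whose mammalian counterpart cleaves fibrillar collagen, was the least abundant member in the mutant. It had 4.01 FPKM in the mutant pool and 3.05 FPKM in the wild-type pool, a 1.24-fold difference and a plain ratio of 1.31. That ratio is close to the 1.30 of mmp2, so that the ratio of mmp2 to mmp13a was 21.0 in the mutant and 21.2 in wild type. Its p in the authors' deposited table was 0.179 and its q 0.999. On the same chromosome, 71798 bases away, lies mmp30, another family member, which differed in the opposite direction, at 29.6 FPKM in the mutant and 43.1 FPKM in wild type, 1.44-fold lower.

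Stromelysin-3 is cleaved into its active form inside the cell by furin-like proteases, and it has little activity on the common matrix proteins. In mammals it is a product of stromal cells in remodelling tissue. The copy mmp11b (chromosome 21, 13837516 to 13878082) had 6.04 FPKM in the mutant pool and 2.78 FPKM in the wild-type pool, a plain ratio of 2.17. With a pseudocount of 5 FPKM its log2 difference was 0.50, under the 1.5-fold limit. It was the scarcest member in wild type, and in the mutant it stood above mmp13a. Its log2 difference of 0.90 was equalled or exceeded by 60 of the 18664 genes, itself included. The copy mmp11a (chromosome 8, 31645404 to 31675582) had 6.80 FPKM in the mutant pool and 5.69 FPKM in the wild-type pool, 1.17-fold higher. The log2 difference of mmp11b exceeded that of mmp11a by 0.67. The copies stood at nearly equal levels in the mutant, where mmp11b was 47.0% of their sum, against 32.8% in wild type. The sum itself was 12.8 FPKM in the mutant and 8.47 FPKM in wild type.

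Membrane-type enzymes showed close to equal levels in both pools. MMP14 is anchored in the cell membrane and cleaves collagen around the cell besides activating MMP2. The copy mmp14a (chromosome 7, 25291381 to 25316862) had 23.5 FPKM in the mutant pool and 22.4 FPKM in the wild-type pool. The copy mmp14b (chromosome 2, 37863967 to 37886399) had 20.0 FPKM in the mutant pool and 18.8 FPKM in the wild-type pool. Their log2 differences of 0.066 and 0.085 lay in the middle of the distribution, with 67.2% and 72.1% of all genes below them. The ratio of mmp14a to mmp14b was 1.18 in the mutant and 1.19 in wild type, nearly equal, unlike the ratio of mmp11a to mmp11b, which was 1.13 in the mutant and 2.04 in wild type. Together they had 43.5 FPKM in the mutant and 41.3 FPKM in wild type.

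**Figure D2:**
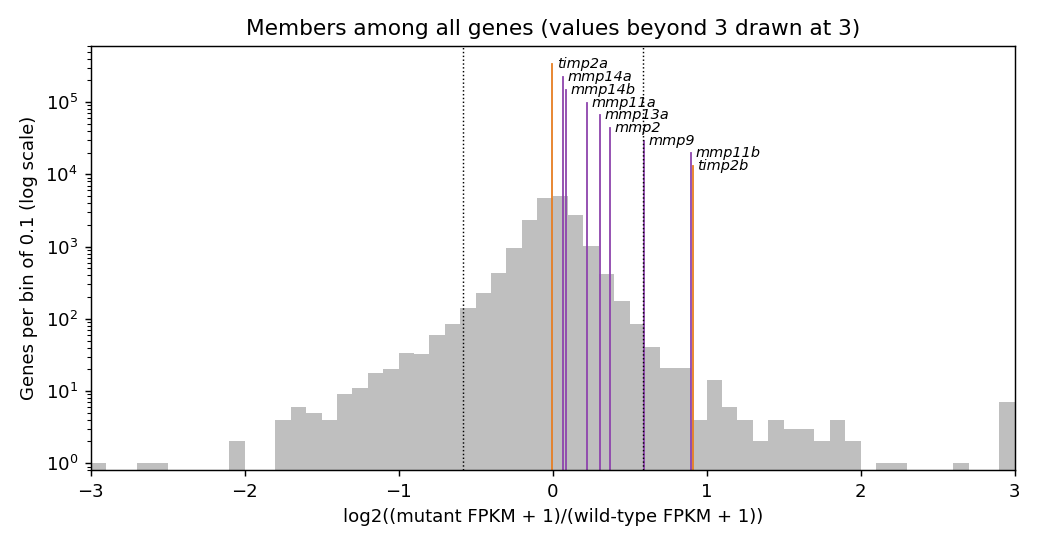
Number of genes (log scale) by log2((mutant FPKM + 1)/(wild-type FPKM + 1)) in bins of 0.1 for all 18664 genes, with vertical lines at the 7 proteinases (purple) and 2 inhibitors (orange) and dotted lines at 1.5-fold in either direction. The members run from timp2a at -0.002 to timp2b at 0.91, and 3 of them reach the upper dotted line.

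The inhibitor pair had the widest gap in log2 difference between copies, at 0.91. TIMP2 inhibits a broad range of metalloproteinases and is also the adaptor in MMP2 activation. The copy timp2b (chromosome 3, 58446853 to 58480406) had 13.4 FPKM in the mutant pool and 6.65 FPKM in the wild-type pool, a plain ratio of 2.01. Its log2 difference of 0.91 was the highest of all members, and 58 genes, itself included, were at least as high. The copy timp2a (chromosome 12, 35487182 to 35531581) had 32.8 FPKM in the mutant pool and 32.9 FPKM in the wild-type pool. It was the single member below 0, at a log2 difference of -0.002. The other gene model at the locus of timp2b, CU681857.1, was listed at 0 in both pools.

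In both pools timp2a remained the more abundant copy, with 2.46 times the level of timp2b in the mutant and 4.95 times in wild type. The share of timp2b in their sum was 28.9% in the mutant and 16.8% in wild type. The sum of both inhibitors was 46.2 FPKM in the mutant and 39.5 FPKM in wild type, and the gap in timp2b alone was 6.71 FPKM. The summed level of the 7 proteinases was 153 FPKM in the mutant and 123 FPKM in wild type, with the 19.4 FPKM gap of mmp2 as its largest part. These 7 proteinases and 2 inhibitors stood in similar proportion, at 3.32 to 1 in the mutant and 3.11 to 1 in wild type. That proportion depends on the genes listed. It leaves out 19 other proteinases, with 78.1 FPKM in the mutant and 87.8 FPKM in wild type. It also leaves out 4 other inhibitors, with 141.5 FPKM in the mutant and 137.8 FPKM in wild type. These are transcript levels, and active enzyme was not measured.

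**Figure D3:**
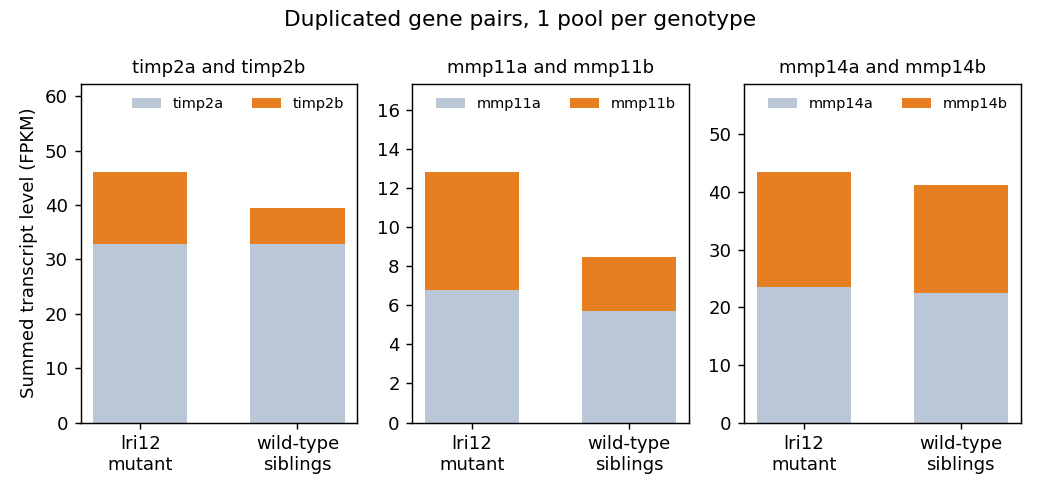
Summed transcript level (FPKM) of the gene pairs timp2a and timp2b, mmp11a and mmp11b, and mmp14a and mmp14b in the lri12 mutant pool (left bar) and the wild-type pool (right bar), 1 pool per genotype. The upper segment is taller in the mutant for timp2b (28.9% of the pair in the mutant against 16.8% in wild type) and mmp11b (47.0% in the mutant against 32.8% in wild type), and the mmp14 pair looks alike in both pools.

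Only 2 members had a q under 0.05 in the authors' comparison. In the authors' deposited table mmp11b and timp2b each have a p of 5e-05, the smallest value in that table and shared by 91 loci, and a q of 0.0172. The other 7 members have a q of 0.999. Of 31308 loci the authors tested, 109 (0.348%) reached a q under 0.05, with 36 above wild type and 73 below it. These values were made from 1 pool against 1 pool and say nothing of variation between clutches. Among 7253 genes averaging 3 to 10 FPKM, where mmp9, mmp11a, mmp11b and mmp13a lie, the log2 difference had an SD of 0.24 and 0.703% were at least 1.5-fold higher. Among 4313 genes averaging 10 to 30 FPKM, where timp2b and both mmp14 copies lie, the SD was 0.23 and 0.904% were at least 1.5-fold higher.

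The rest of the metalloproteinase family did not show a shared direction. Of 19 other family symbols, 13 entered, with 7 above 0, 6 below 0 and a median log2 difference of 0.036. None of them was past 1.5-fold. Among the 13, MMP16 (3 of 3) and mmp16a have the same coordinates but were counted as separate genes. Their log2 differences were 0.036, which is the median itself, and -0.0425. The counts on each side of 0 and the median may therefore not rest on 13 separate genes. Among secreted or released enzymes, 3 of 4 stood above 0, as most members did, with a median of 0.23. With no filter on low values 9 entered, and that median was 0.032. Of the 3, mmp23bb had 8.38 FPKM in the mutant and 6.04 FPKM in wild type. MMP28 had 6.19 FPKM in the mutant and 4.83 FPKM in wild type, and MMP23B had 4.15 FPKM in the mutant and 3.59 FPKM in wild type. The gene below 0 was mmp30. Among membrane-type enzymes, 4 of 9 stood above 0, with a median of -0.041. Their range was from mmp17b at -0.18 to MMP25 (1 of 2) at 0.17. The 6 symbols that did not enter include mmp13b, the second collagenase copy, at 0.0594 FPKM in the mutant and 0.104 FPKM in wild type. The summed level of the 19 other enzymes was 78.1 FPKM in the mutant and 87.8 FPKM in wild type. The gap of mmp30, at 29.6 FPKM in the mutant and 43.1 FPKM in wild type, was wider than that of the sum. Without mmp30 the others therefore summed higher in the mutant.

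Other inhibitors were at similar levels in both pools. RECK, a membrane-anchored inhibitor of several metalloproteinases, had 48.4 FPKM in the mutant and 44.3 FPKM in wild type. TIMP4 had 2.60 FPKM in the mutant and 1.94 FPKM in wild type, and its locus holds 10 further gene models. The 4 genes of this list had a median log2 difference of 0.084. Of them 0 were past 1.5-fold, where 0.804% of all genes were higher and 1.68% lower.

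Related metalloproteinases with disintegrin domains had medians slightly above 0. The ADAM list, several of whose genes encode proteases that shed proteins from the cell surface, had 9 of 13 genes above 0 and a median of 0.10. The highest was adam8b, at 2.79 FPKM in the mutant and 1.70 FPKM in wild type. The ADAMTS proteases, secreted enzymes that cleave proteoglycans and procollagens, had 8 of 11 above 0 and a median of 0.086, led by adamts1 at 7.88 FPKM in the mutant and 5.21 FPKM in wild type. With a mean of at least 5 FPKM only 2 ADAMTS genes entered, with a median of 0.34. In neither group did a gene reach 1.5-fold, where 0.804% of all genes were higher and 1.68% lower.

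Activators of the proenzymes and the regulators of those activators lay around the centre of all genes. Of 14 genes of proprotein convertases, membrane serine proteases and the plasminogen system, 7 were above 0 and 7 below, with a median of -0.004. The convertase furina had 8.95 FPKM in the mutant and 8.63 FPKM in wild type, and furinb had 6.48 FPKM in the mutant and 7.63 FPKM in wild type. Plasminogen, plg, had 30.6 FPKM in the mutant and 37.5 FPKM in wild type. The single gene past 1.5-fold was HPN (1 of 2), at 26.2 FPKM in the mutant and 15.5 FPKM in wild type. These values are sums over 2 loci, and at least 1 of them shares its coordinates with further gene models.

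**Figure D4:**
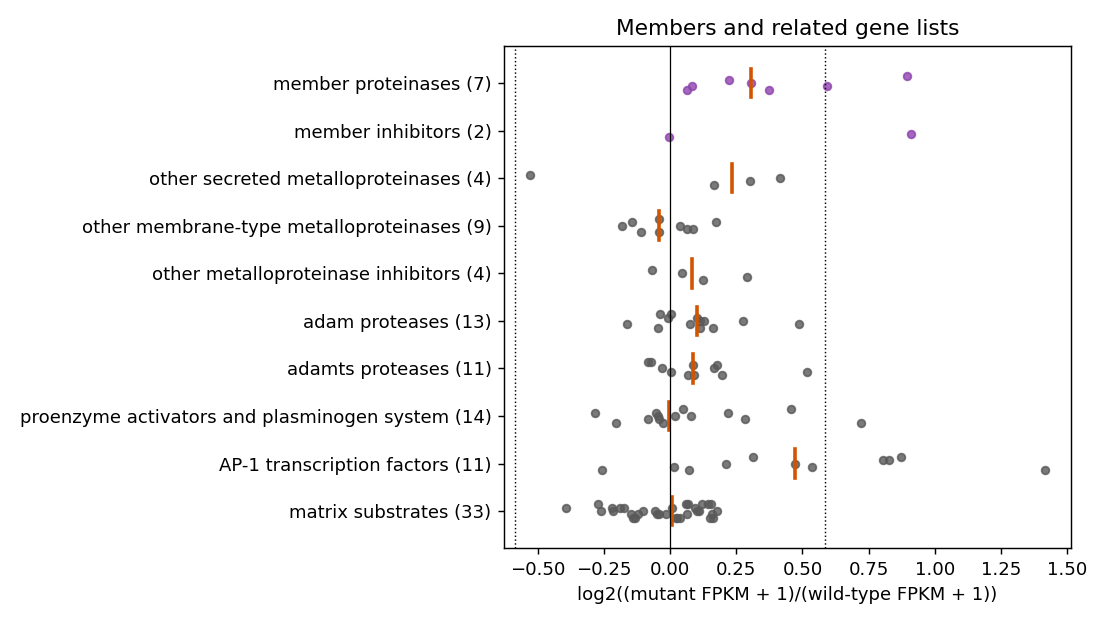
log2((mutant FPKM + 1)/(wild-type FPKM + 1)) of each entering gene (points) by list, with the number of genes in brackets, the median as an orange bar for lists of 3 or more, a solid line at 0 and dotted lines at 1.5-fold. Of the medians drawn, those of the AP-1 genes (0.47, or 0.21 with no filter on low values) and the member proteinases (0.31) are highest. The 2 member inhibitors, without a bar, lie at -0.002 and 0.91. The matrix substrates centre on 0.0073.

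Matrix genes lay evenly around 0. Of 33 genes of collagens, laminins, fibronectins, elastins, fibrillins, tenascins, proteoglycans, nidogen and sparc, 17 were above 0 and 16 below. Their median was 0.0073, and 0 were past 1.5-fold, where 0.804% of all genes were higher and 1.68% lower. Fibrillar collagen col1a1a had 366 FPKM in the mutant and 360 FPKM in wild type. The lowest was col10a1, a collagen of hypertrophic cartilage and bone, at 98.9 FPKM in the mutant and 130 FPKM in wild type, and the highest was the laminin gene lamb2 at a log2 difference of 0.18.

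Genes of AP-1, a transcription factor family with known sites in several mammalian metalloproteinase promoters, had a median of 0.47 with 10 of 11 above 0. That median was 0.32 with a pseudocount of 5 FPKM and 0.21 with no filter on low values, where 15 genes entered. At least 1.5-fold higher were 4 of them, with 0.804% of all genes past that limit. This list too was made with earlier results of these data known, so its count is not read against that share. The 4 were fosl1, at 5.56 FPKM in the mutant and 1.46 FPKM in wild type, junbl, fos and junb. Their q in the authors' deposited table was 0.0172 for fosl1, 0.118 for junbl, 0.191 for fos and 0.202 for junb. The AP-1 gene below 0 was FOS (2 of 3), at 5.24 FPKM in the mutant and 6.46 FPKM in wild type. Whether the metalloproteinases follow these factors was not tested.

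Markers of cell types known to make these enzymes lay on both sides of 0. Epidermal genes were mostly higher in the mutant, and genes of the neutrophil list were level or lower. The 9 epidermal genes had 7 above 0, a median of 0.21 and a range from -0.058 to 0.36, and their summed level was 12630 FPKM in the mutant and 10540 FPKM in wild type. Of these, keratin krt4 had 5608 FPKM in the mutant and 4384 FPKM in wild type. The 14 fibroblast and fin mesenchyme genes had 10 above 0, with a sum of 893 FPKM in the mutant and 870 FPKM in wild type. The neutrophil list had 1 of 7 entering genes above 0, a median of -0.26 and a range from -0.89 to 0.022, with a sum of 400 FPKM in the mutant and 656 FPKM in wild type. Most of that sum is cpa5, a carboxypeptidase gene at 282 FPKM in the mutant and 521 FPKM in wild type. It is the only gene of the list past 1.5-fold, and whether its transcript came from neutrophils cannot be told from whole larvae. Without cpa5 the sums were 119 FPKM in the mutant and 135 FPKM in wild type. The lysozyme gene lyz had 72.4 FPKM in the mutant and 86.7 FPKM in wild type. Nearly level was srgn, at 18.9 FPKM in the mutant and 19.4 FPKM in wild type. The macrophage list had 4 of 12 above 0, a median of -0.025 and sums of 55.0 FPKM in the mutant and 56.9 FPKM in wild type. Of 7 bone cell genes, 4 were above 0, and the list summed to 138 FPKM in the mutant and 170 FPKM in wild type, most of it col10a1. The bone cell gene past 1.5-fold was zgc:111821, a synonym of spp1, at 3.998 FPKM in the mutant and 8.53 FPKM in wild type, 1.91-fold lower, and the authors' deposited table gives its q as 0.0307. Of 8 endothelial genes, 3 were above 0 and 5 below, with a median of -0.0055. They summed to 70.0 FPKM in the mutant and 66.2 FPKM in wild type. The most abundant of them, vsg1, had 25.2 FPKM in the mutant and 20.4 FPKM in wild type. The part of these cell types in the differences of mmp9, mmp11b and timp2b was not tested.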

How the data were processed

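RNA from 1 pool of lri12 mutant larvae and 1 pool of wild-type siblings was sequenced, and 1 table with 40114 loci was deposited. Per the file headers, its columns are those of a Cuffdiff comparison, and the deposited values were taken as FPKM, a unit that no label states. CASAVA, Bowtie and the build Zv9 are named in the submitters' processing notes. Counting rules, strand and annotation were not given in the sources used here. Each p-value and q-value was deposited by the authors. Coordinates (Zv9, 1-based) cover the whole locus.

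Loci with failed estimates (19) or no symbol (8509) were left out, loci of 1 symbol were summed, and a locus with several symbols counted as 1 gene. Genes averaging 1 FPKM or more over both pools were compared as log2((mutant + 1)/(wild type + 1)) with Python 3.11.15 and pandas 2.3.3. The code was tested on simulated data. Limits of 2-fold and 1.5-fold are rules of size. Members and lists were chosen with earlier results of these data known. All members are named, as are up to 3 of the highest and 3 of the lowest genes of a pathway list and up to 3 of the most abundant genes of a marker list. DCLRE1B, CU681857.1, mmp13b, col1a1a, furina, junb, MMP16 (3 of 3), mmp16a and zgc:111821 were named after their values were seen. The model with no symbol at the locus of mmp9 was likewise picked out after its values were seen. List symbols were matched as written or through synonyms in the GRCz12tu gene table of RefSeq, for names alone, which gave 118 genes for the 158 symbols of 8 pathway lists and 84 for the 81 of 9 marker lists, since a symbol can match several numbered copies. Symbols in capitals, some numbered as copies, are as the table gives them. Planned sequence descriptions were not made, and no genome was used. In all, 7 alternatives were planned and 1 was added after seeing the data.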

Additional observations from a re-analysis of the deposited data

How the results depend on the processing

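Pseudocounts, filters, a rescaling, the choice of locus and the restriction to tested loci were varied singly, with a count held unchanged within 1.5 times, a median within 0.1 and a gene by its side of 1.5-fold. Of 70 values for single members, 68 were unchanged in that sense. Each member is 1 tested locus, so the filters, the choice of locus and the restriction to tested loci could not change its value. Rescaling shifts all genes alike, so only the pseudocounts could move members apart, and that tally is no measure of robustness. With a pseudocount of 5, mmp11b (0.50) and mmp9 (0.39) came under 1.5-fold, so that 1 member passed it in place of 3, and the median of the members was 0.16. The fold of mmp11b ran from 1.42 to 2.17 and that of timp2b from 1.58 to 2.01 over all settings. Members at least 2-fold higher numbered 1 with a pseudocount of 0.1 and 2 with no pseudocount, a setting added after seeing the data, against 0 as reported. With a mean of at least 5, mmp11b and mmp13a no longer entered.

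Over all genes, a pseudocount of 0.1 gave 72 higher and 134 lower by 2-fold, and 255 higher and 488 lower by 1.5-fold. A pseudocount of 5 gave 22 higher and 40 lower by 2-fold, and 78 higher and 146 lower by 1.5-fold. No pseudocount gave 74 higher and 147 lower by 2-fold, and 276 higher and 508 lower by 1.5-fold. A mean of at least 5 gave 33 and 92 higher by 2-fold and 1.5-fold. As reported they were 54 higher and 82 lower by 2-fold, and 150 higher and 313 lower by 1.5-fold. A pseudocount shrinks or widens low genes by construction, and a filter changes which genes enter.

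Among list medians, AP-1 genes moved to 0.32 with a pseudocount of 5 and to 0.21 with no filter. The other secreted metalloproteinases moved from 0.23 to 0.032 with no filter, where 9 genes entered in place of 4. ADAMTS genes moved to 0.34 with a mean of at least 5, where 2 genes entered. For the other membrane-type metalloproteinases a mean of at least 5 leaves 1 gene, MMP15 (2 of 2), whose own value of 0.087 stands against the list's median of -0.041 as reported, so this is no reversal of the group. No paired analysis was possible because each genotype has 1 pool. Depth is unknown in absolute terms, so no counting error can be given for any member.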
